A study of Mus musculus with 15 samples.

Results

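The PD-1 antibody experiment comprised 4 of the 15 libraries of the series, those titled Control, anti_PD1, anti_B7S1 and combo, and it was read in a pair of comparisons that share no library. In the first pair anti_PD1 was set against Control, and in the second pair combo, whose title stands for both antibodies, was set against anti_B7S1. PD-1, encoded by Pdcd1, is a receptor on activated T cells that dampens signalling from the T cell receptor once it binds its ligands, and antibodies that block it are used to restore T cell responses to tumours. Tumour-infiltrating CD8+ T cells that carry PD-1 include a less differentiated, Tcf7-expressing pool, which can return to lymphoid tissue and renew itself, and more differentiated killer cells, which make granzymes and divide. The other antibody is directed at B7S1 (gene Vtcn1), an inhibitory member of the B7 family of ligands.

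All 4 libraries came from wild type C57BL/6 mice bearing E.G7 tumours, a mouse T cell lymphoma that makes ovalbumin. Female mice received E.G7 cells under the skin at 6 to 8 weeks of age, the cells of the series were sorted on day 21, and the age label reads 9 to 11 weeks. For these 4 libraries the labels give the treatment only in the title, with no dose, schedule, control reagent, number of mice or sort gate, and the treatment field reads "none". There was 1 library per treatment, so no test and no error over replicates could be had, and every statement below is a description of these 4 libraries. Whether the treatment or the making of a single library accounts for a difference cannot be told apart.

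Genes that define CD8+ T cells were present in every library. Cd8a, a chain of the CD8 coreceptor, stood at 355 FPKM (fragments per kilobase of transcript, scaled to the library total) in Control, 379 in anti_PD1, 285 in anti_B7S1 and 407 in combo, and Cd3e, a chain of the T cell receptor complex, at 249.57, 311, 308 and 312. None of the 11 listed genes of CD8 T cell identity was 2-fold different in the same direction in both pairs. The libraries differed in how many of the 14710 genes were listed at 0 FPKM: 6242 in Control, 2244 in anti_PD1, 4424 in anti_B7S1 and 4828 in combo. Some genes used by every cell were among them, such as Gusb in Control and Tbp in combo, so a 0 is given here only as a listed value, and no ratio of a single gene is given against it. The depth behind these values is unknown.

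Among the gene lists read, genes of cell division had the most members higher in both pairs, and genes of the naive and memory state the most that were lower. A gene was read when it reached 5 FPKM in the higher library of each pair, which 6255 of 14710 did. Differences are on log2(FPKM + 1), so they understate the change of low genes, and 2-fold was the limit for calling a gene higher or lower. By this rule 978 genes (15.6%) were higher in both pairs and 456 (7.29%) were lower in both. Opposite directions were found for 1158 genes (18.5%), of which 747 were higher in the first pair and lower in the second. In the first pair alone 2550 genes (40.8%) were higher and 1334 (21.3%) lower, and in the second pair alone 1967 (31.4%) were higher and 1756 (28.1%) lower. Across all genes read, the median difference was 0.40 in the first pair and 0.08 in the second. In all, 1434 genes differed in the same direction in both pairs and 1158 in opposite directions, and Pearson's r between the pairs was 0.095 across the 6255 genes, which are not independent. In bulk libraries such as these, fewer cells of a type and less RNA per cell cannot be told apart.

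Values at or near 0 weigh on the counts. A gene under 1 FPKM in Control and anti_B7S1 was read only if anti_PD1 and combo reached 5 FPKM, so it could only be called higher. The reverse held for genes under 1 FPKM in anti_PD1 and combo. Of the 978 genes higher in both pairs, 617 were listed at 0 in at least 1 library, 528 of them in Control and 381 in anti_B7S1, while 117 of the 456 lower genes were, 110 in combo. With only the 3550 genes at 1 FPKM or more in all 4 libraries, 175 (4.93%) were higher and 198 (5.58%) lower in both pairs. At the edge of the rule, Spop was just inside with differences of 4.62 and 1.00 and Mysm1 just outside with 0.998 and 1.59. On the lower side Egln2 was just inside at -2.53 and -1.001, and Supt6 just outside at -2.58 and -0.997.

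**Figure D1:**
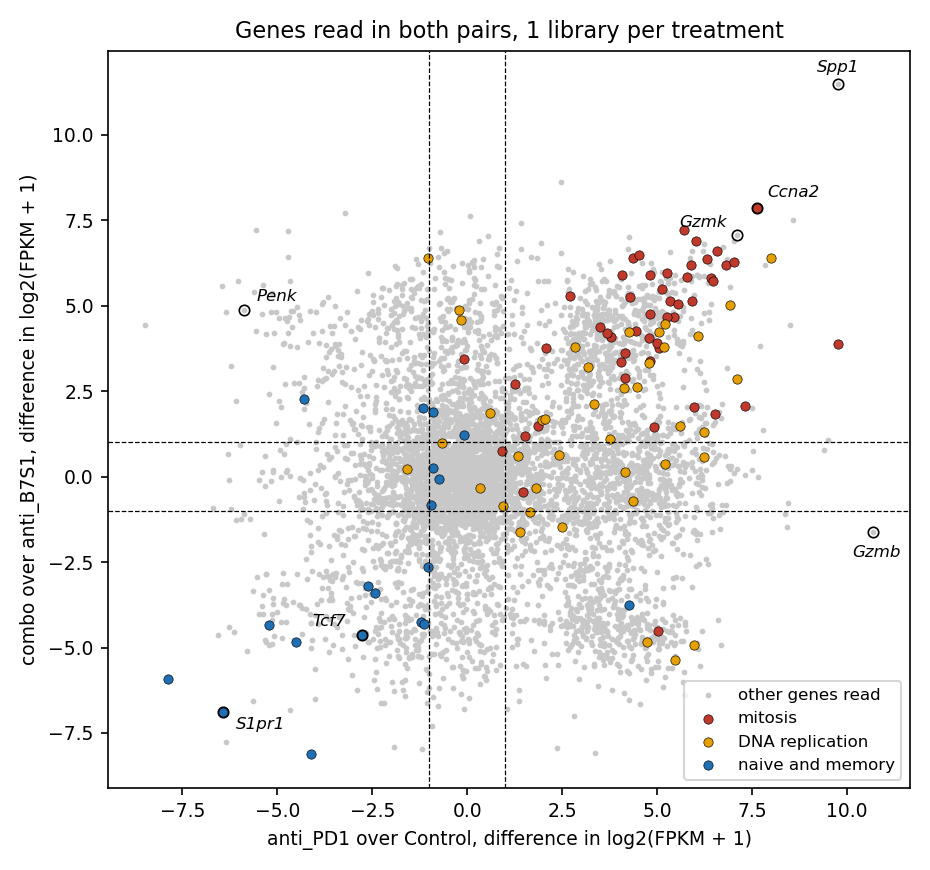
Each point is 1 of the 6255 genes read, placed by its difference in log2(FPKM + 1) between anti_PD1 and Control (horizontal) and between combo and anti_B7S1 (vertical). Dashed lines mark 2-fold, coloured points are members of the gene lists named in the key, and circled points carry their gene names. Mitosis genes lie at the upper right and 11 naive and memory genes at the lower left, while the grey cloud fills all 4 corners.

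Mitosis genes gave the widest agreement between the pairs. The list of 56 genes holds the cyclins and kinases that start mitosis, the parts of the spindle and kinetochore, and the condensins that pack chromosomes. Of its members 49 were read, and 45 of these (91.8%, against 15.6% of all genes read) were higher in both pairs and none lower. A member under 1 FPKM in Control and anti_B7S1 was read only through anti_PD1 and combo, so the filter fixed its call as higher. This was so for at least 26 of the 45. In the first pair 47 of 49 were higher, against 40.8% of all genes read. The second pair, which holds no Control library, had 46 of 49 higher, against 31.4%. The median difference of these 49 was 4.98 in the first pair and 4.67 in the second, against 0.40 and 0.08 over all genes read. Over the 56 listed members, whether read or not, these medians were 4.87 and 4.15, and 52 lay above 0 in both pairs. Only 13 members were at 1 FPKM or more in all 4 libraries. Of those, 10 were higher in both pairs, against 4.93% of all such genes.

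Ccna2 encodes cyclin A, which partners with cyclin-dependent kinases in S phase and at the entry to mitosis. The gene lies on chromosome 3 at 36564865 to 36572150 on the minus strand of GRCm38. It was listed at 0 in Control, 195 FPKM in anti_PD1, 0 in anti_B7S1 and 232 in combo. Both libraries without the PD-1 antibody in their title were therefore at 0 and both with it were near 200 FPKM. Ccnb1, a cyclin B that drives entry into mitosis, followed the same order with 0, 112, 0.05 and 75.2 FPKM. Its partner kinase Cdk1 stood at 11.88, 83.5, 0 and 38.1 FPKM. Birc5, or survivin, a subunit of the chromosomal passenger complex, was above 0 throughout, at 1.03, 264, 1.08 and 161 FPKM, and gave differences of 7.03 and 6.28. The kinase of that complex, Aurkb, was at 0, 53.7, 0 and 55.8 FPKM, and its subunit Cdca8 at 0, 158, 27.81 and 119.9 FPKM. Cdca8 was thus already present in anti_B7S1, and its difference in the second pair was 2.07.

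Motor proteins and spindle parts repeated this order. Kif11, the motor that pushes spindle poles apart, stood at 0.16, 53.6, 1.73 and 89.5 FPKM, with differences of 5.56 and 5.05. For Kif15, which backs up Kif11, the levels were 0.47, 50.6, 0.43 and 63.7 FPKM and the differences 5.13 and 5.50. Tpx2, which nucleates spindle microtubules and activates Aurora A, stood at 0.1, 65.4, 0.06 and 36.2 FPKM, and Prc1, which bundles the midzone, at 1.97, 81.7, 1.43 and 64.2 FPKM. Ckap2l, a spindle-associated protein, was at 0.02 FPKM in both libraries without the PD-1 antibody and at 82.9 and 23.6 FPKM in those with it. Top2a, which untangles DNA before chromosomes part, was at 0.39, 81.2, 0 and 72.1 FPKM. The proliferation marker Mki67 was lower than most of the list, at 0, 29.1, 1.59 and 6.08 FPKM, and its difference of 1.45 in the second pair was among the smallest. With a pseudocount of 4 FPKM in place of 1 it was 0.851, under 2-fold.

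Over the 45 mitosis genes together, the level in Control ran from 0 to 35.6 FPKM with 34 genes under 1, and in anti_B7S1 from 0 to 49.9 FPKM with 30 under 1. In anti_PD1 they ran from 10.3 to 859 FPKM with a median of 61.2, and in combo from 6.08 to 476 FPKM with a median of 63.7. Stmn1, which destabilises microtubules, was the highest of them in both. A switch from under 1 FPKM in both libraries without the PD-1 antibody to 10 or more in both with it was seen for 26 of the 49 mitosis genes, against 313 (5.0%) of all genes read. The 4 exceptions among those read were Cdc25b, a phosphatase that activates Cdk1, which was higher in the first pair and lower in the second (0, 31.7, 22.2 and 0.02 FPKM), the kinetochore gene Cenpk, Pttg1 and Smc4. Of the 7 not read, Aurka was at 84.3 FPKM in anti_PD1 and 0.51 in combo, and Ect2 at 42.1 and 0.81. Hmmr, Anln and Ttk were likewise above 10 FPKM in anti_PD1 and under 5 in combo, while Cenpf and Cdc25c stayed under 5 FPKM in all 4 libraries.

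**Figure D2:**
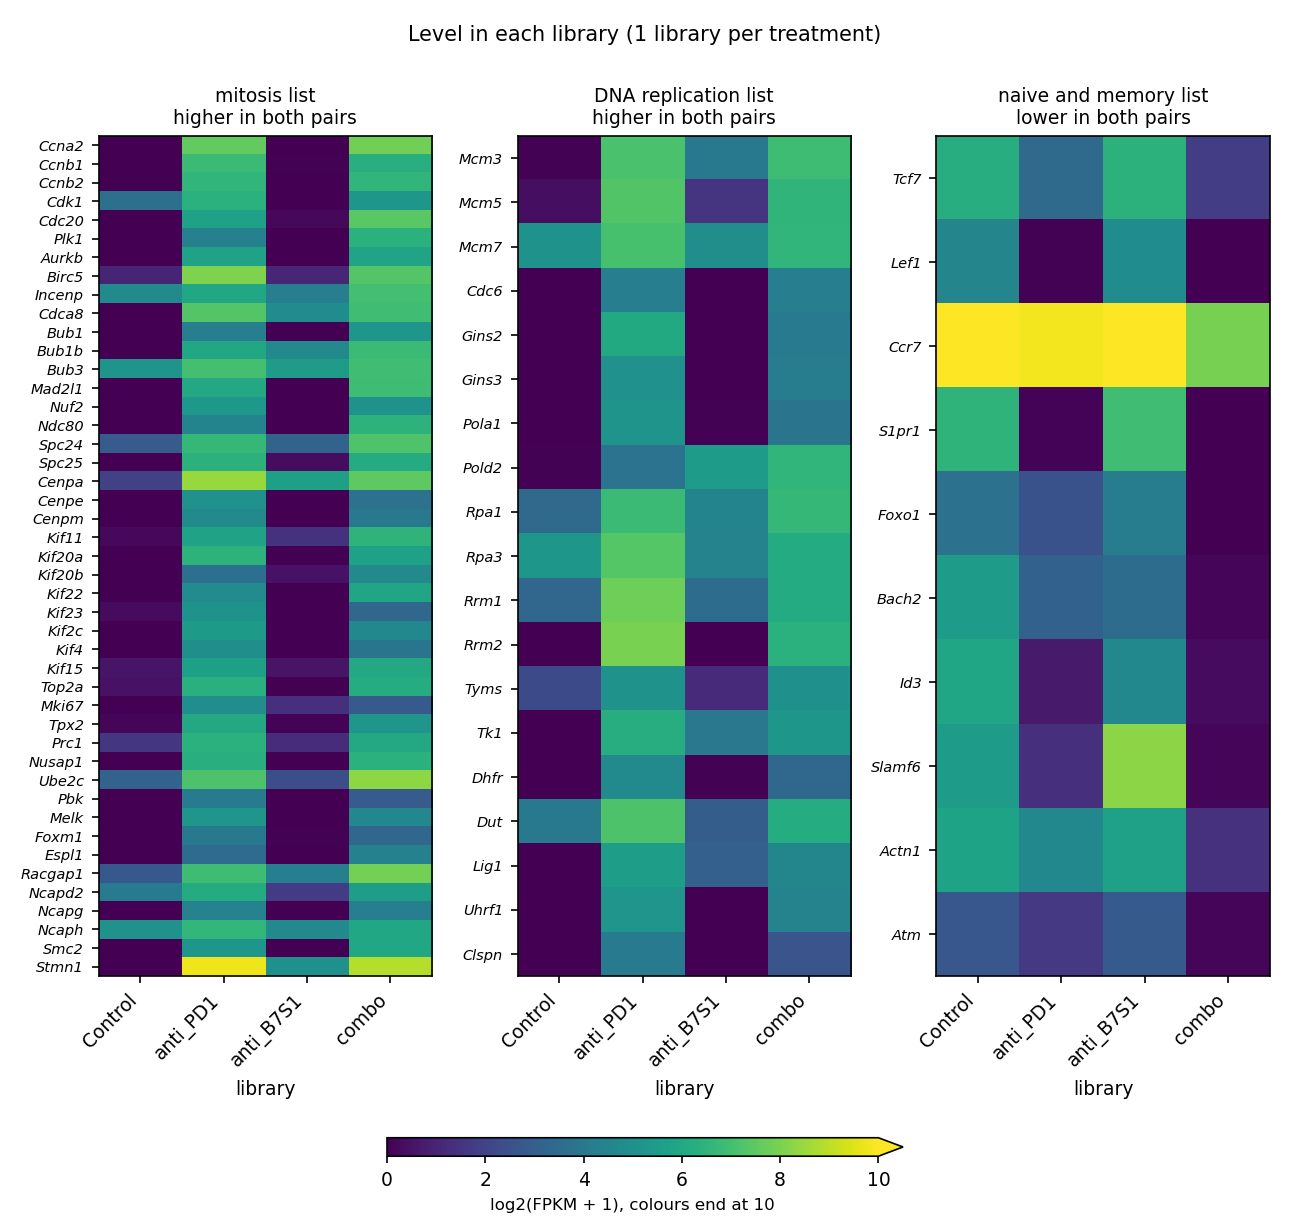
Rows are the 45 mitosis and 19 DNA replication genes that were higher in both pairs and 10 of the 11 naive and memory genes that were lower, columns are the 4 libraries, and colour is log2(FPKM + 1). The Control and anti_B7S1 columns are mostly dark for the mitosis genes and lighter than anti_PD1 and combo for the naive and memory genes, except that the colour scale ends below the Control and anti_B7S1 levels of Ccr7.

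The genes that copy DNA before mitosis were less uniform. The replication list holds the MCM helicase and its loaders, the polymerases and clamp loaders, and the enzymes that make deoxynucleotides. Of 45 members 40 were read, and 19 (47.5%, against 15.6% of all genes read) were higher in both pairs and none lower. At least 6 of these 19 were under 1 FPKM in Control and anti_B7S1, so the filter fixed their call as higher. Another 7 of the 40 went in opposite directions, as 18.5% of all genes read did. In the first pair 32 of 40 were higher with a median difference of 3.94, and in the second 23 of 40 with a median of 1.58. Over all genes read the shares higher were 40.8% and 31.4%. Among the 19 members at 1 FPKM or more in all 4 libraries, 6 were higher in both, against 4.93% of all such genes. The median of these members in the second pair was 0.608. Rrm2, the regulated subunit of ribonucleotide reductase, was at 0, 255, 0 and 82.6 FPKM. Mcm5, a subunit of the replicative helicase, stood at 0.28, 155, 1.86 and 91.7 FPKM, with differences of 6.93 and 5.02. Helicase subunits did not all share this: Mcm3 was at 0.04, 141, 15.3 and 118 FPKM, while Mcm2 was highest in anti_B7S1 at 92.3 FPKM and Mcm6 was 2-fold different in neither pair. Uhrf1, which carries DNA methylation through replication, was at 0, 35.7, 0 and 21.1 FPKM, and Cdc6, which loads the helicase at origins, at 0, 18.3, 0.01 and 18.1 FPKM. Pcna, the sliding clamp, was present in every library at 221, 426, 222 and 122 FPKM and was lower in combo than in anti_B7S1.

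Some promoters are shown because 45 of 49 mitosis genes and 19 of 40 replication genes read were higher in both pairs. Textbook work names promoter elements that time the expression of such genes in the cell cycle. The CHR element binds complexes of the MuvB family, CCAAT boxes bind NF-Y, and E2F sites bind E2F and RB-family proteins. The windows run from 250 bases before to 50 from the start site and come from RefSeq for GRCm38.p6, 5′ to 3′ on the gene's strand, with capitals at every match to the motifs spelled out after them. Ccnb2, a second cyclin B, lies at chr9:70421505-70421804 on the minus strand and its transcript was at 0, 94.3, 0 and 95.3 FPKM. Rrm2 lies at chr12:24708004-24708303 on the plus strand. Nusap1, which bundles spindle microtubules, lies at chr2:119618048-119618347 on the plus strand, and its transcript was at 0, 78.2, 0 and 82.3 FPKM.
Ccnb2: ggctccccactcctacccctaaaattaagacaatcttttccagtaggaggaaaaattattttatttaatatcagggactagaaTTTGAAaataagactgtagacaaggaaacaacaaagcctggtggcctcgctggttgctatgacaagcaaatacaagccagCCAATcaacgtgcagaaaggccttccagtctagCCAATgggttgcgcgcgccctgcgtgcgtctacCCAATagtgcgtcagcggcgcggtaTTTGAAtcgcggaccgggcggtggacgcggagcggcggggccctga
Rrm2: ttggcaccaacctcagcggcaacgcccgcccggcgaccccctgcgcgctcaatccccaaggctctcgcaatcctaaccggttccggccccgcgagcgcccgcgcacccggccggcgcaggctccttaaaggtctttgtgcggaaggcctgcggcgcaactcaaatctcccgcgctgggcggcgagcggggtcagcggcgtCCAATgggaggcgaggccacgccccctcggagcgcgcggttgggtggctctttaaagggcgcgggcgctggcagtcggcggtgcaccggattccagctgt
Nusap1: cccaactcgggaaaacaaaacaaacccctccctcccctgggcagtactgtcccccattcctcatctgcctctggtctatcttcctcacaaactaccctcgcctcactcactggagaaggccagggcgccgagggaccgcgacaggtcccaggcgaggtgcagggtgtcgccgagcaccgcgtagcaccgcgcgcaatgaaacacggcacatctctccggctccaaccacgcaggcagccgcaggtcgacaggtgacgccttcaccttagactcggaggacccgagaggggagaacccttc
The Ccnb2 window held 3 CCAAT matches, which begin at -87, -54 and -21 from the start site, and CHR matches at -167 and 4. Rrm2 held 1 CCAAT match, at -50, and the Nusap1 window held none of the letters searched.

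Matches were counted on both strands in every RefSeq window, as a description that names no bound site. The CHR was spelled TTTGAA or TTCGAA, the CCAAT box CCAAT, and the E2F site TTTGGCGC, TTTCGCGC, TTTCCCGC or TTTGCCGC. No motif contains another, though neighbouring matches can share end bases. A CHR match was present in 30 of 38 windows (78.9%) of the mitosis genes higher in both pairs, of which 36 of 45 genes had a window, against 19.2% of all 32851 windows and 14.9% of windows of genes read. CCAAT was present in 73.7% of the mitosis windows, 37.4% of all and 38.4% of those of genes read. The E2F letters were in 9 of 22 windows (40.9%) of the replication genes higher in both pairs, of which 17 of 19 genes matched, against 2.26% of all windows and 4.76% of windows of genes read. Outside both cycle lists, windows of genes higher in both pairs held a CHR match in 15.1%, CCAAT in 39.2% and the E2F letters in 6.63%. Windows of genes lower in both pairs held them in 14.1%, 38.9% and 4.25%. Members of the cycle lists that were not higher in both pairs were not counted apart, so the shares of the lists cannot be tied to the pairs.

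On the lower side stood genes that keep T cells in a naive or memory state and let them leave tissue. Of the 30 genes in that list 29 were listed and 19 read, and 11 of those (57.9%, against 7.29% of all genes read) were lower in both pairs and none higher. At least 4 of these 11 were under 1 FPKM in anti_PD1 and combo, so the filter fixed their call as lower. The first pair had 13 of 19 lower and the second 12 of 19, against 21.3% and 28.1% of all genes read. The medians of the 19 were -1.21 and -3.39, and over all 29 listed members -1.15 and -0.83. Of the 9 members at 1 FPKM or more in all 4 libraries, 3 were lower in both, against 5.58% of all such genes. The median of these members in the second pair was -0.071.

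S1pr1 encodes the sphingosine-1-phosphate receptor that lets T cells exit into lymph and blood, and it lies on chromosome 3 at 115710433 to 115715072 on the minus strand of GRCm38. It stood at 90.8 FPKM in Control, 0.07 in anti_PD1, 120.2 in anti_B7S1 and 0.02 in combo. The libraries with the PD-1 antibody were near 0 and the others near 100 FPKM, which gave differences of -6.42 and -6.89. Ccr7, the chemokine receptor for lymph node entry, had the highest level of the list and stayed well above 0, at 5452, 896, 2318 and 249 FPKM, so it was 6.08-fold lower in the first pair and 9.26-fold lower in the second on the FPKM + 1 scale. Klf2, the factor that turns on S1pr1, was at 20.9, 3.29, 0.43 and 0 FPKM and was not read in the second pair. Il7r, the survival receptor of memory cells, lay just under the limit, with 46.7, 23.4, 114 and 63.6 FPKM and differences of -0.96 and -0.83. With every library scaled to the same total, its difference in the first pair passed 2-fold at -1.001.

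Several transcription factors of the list were also lower in both pairs, while Foxp1 and Satb1 were 2-fold different in neither and Bcl6, Klf2 and Klf3 were not read. Tcf7 encodes TCF-1, which maintains that pool, and lies on chromosome 11 at 52252371 to 52283014 on the minus strand of GRCm38. It was at 73.8 FPKM in Control and 9.96 in anti_PD1, 6.82-fold lower, and at 85.2 FPKM in anti_B7S1 and 2.5 in combo, 24.6-fold lower on the FPKM + 1 scale. Unlike S1pr1 it was still measured in both libraries with the PD-1 antibody. Lef1, a relative of TCF-1, was at 22.3, 0.03, 28.0 and 0.02 FPKM, and Id3, an inhibitor of E proteins found in memory precursors, at 59.9, 0.65, 24.3 and 0.24 FPKM. Bach2, a repressor of effector genes, was at 44.7, 7.53, 10.7 and 0.11 FPKM, and Foxo1, which drives Klf2, at 12.3, 4.75, 18.0 and 0 FPKM. Slamf6, a surface marker of the stem-like pool, was at 43.4, 1.57, 303 and 0.09 FPKM, with its largest level by far in anti_B7S1. Lef1, S1pr1 and Id3 were among those at 10 FPKM or more in both libraries without the PD-1 antibody and under 1 in both with it, a pattern found for 44 (0.703%) of all genes read. Members outside this pattern included Bcl2, a survival protein, at 0.01, 18.4, 33.5 and 1.58 FPKM, and Ly6c2 and Ms4a6b, each lower in the first pair and higher in the second.

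Genes that arm killer T cells were mixed. Of 28 effector molecules 22 were read, and 6 (27.3%, against 15.6% of all genes read) were higher in both pairs and none lower. Of these, 4 (Gzmk, Gzme, Gzmd and Spp1) were under 1 FPKM in Control and anti_B7S1, so the filter fixed their call as higher. Another 5 of the 22 went in opposite directions, as 18.5% of all genes read did. In the first pair 14 of 22 were higher with a median of 2.40, and in the second 10 of 22 with a median of 0.76. Over all genes read the shares higher were 40.8% and 31.4%. Of the 11 members at 1 FPKM or more in all 4 libraries, 1 was higher in both pairs, against 4.93% of all such genes. The first median over these members was 0.499. Gzmk, a granzyme of less cytotoxic effector cells, was at 0, 137, 0 and 134 FPKM and lies on chromosome 13 at 113171608 to 113225908 on the minus strand of GRCm38. Gzme was at 0, 74.3, 0 and 57.0 FPKM and Gzmd at 0, 28.4, 0 and 22.7 FPKM. These are near-identical neighbours in the granzyme B cluster, so reads may have been split between them. Spp1, or osteopontin, a secreted glycoprotein, was at 0.13, 972, 0.04 and 2971 FPKM. By the smaller of its differences it led the ranking, given below, of genes higher in both pairs. Ccl3, a chemokine that draws other immune cells, was at 2.41, 176, 43.6 and 389 FPKM, with differences of 5.70 and 3.13.

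Perforin and granzyme B differed from Gzmk in the anti_B7S1 library. Prf1, which makes the pore through which granzymes enter a target, was at 0.11 FPKM in Control, 793 in anti_PD1, 295 in anti_B7S1 and 625 in combo, and its difference of 1.08 in the second pair was close to the limit. Gzmb, which encodes granzyme B, a protease that starts death in the target, was at 0.04, 1716, 788 and 257 FPKM, so it was higher with the PD-1 antibody in the first pair and lower in the second. Ccl4 went the same way at 0.09, 361, 537 and 254 FPKM, as did Ccl5 at 625, 1775, 3054 and 1229 FPKM. Fasl, the ligand that triggers death through Fas, was at 0.03, 132, 106 and 115 FPKM and differed by 0.12 in the second pair. Ifng, the gene of interferon gamma, was at 37.8, 259, 216 and 142 FPKM. For Tnf the second pair carried the difference, with 64.9, 92.2, 12.3 and 125 FPKM. Gzma was above 1 FPKM in anti_B7S1 alone, at 35.0. Control was the lowest of the 4 libraries for Gzmb, Prf1, Ccl4, Fasl, Ifng and Ccl5, and without it their differences in the second pair lay between -1.61 and 1.08.

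**Figure D3:**
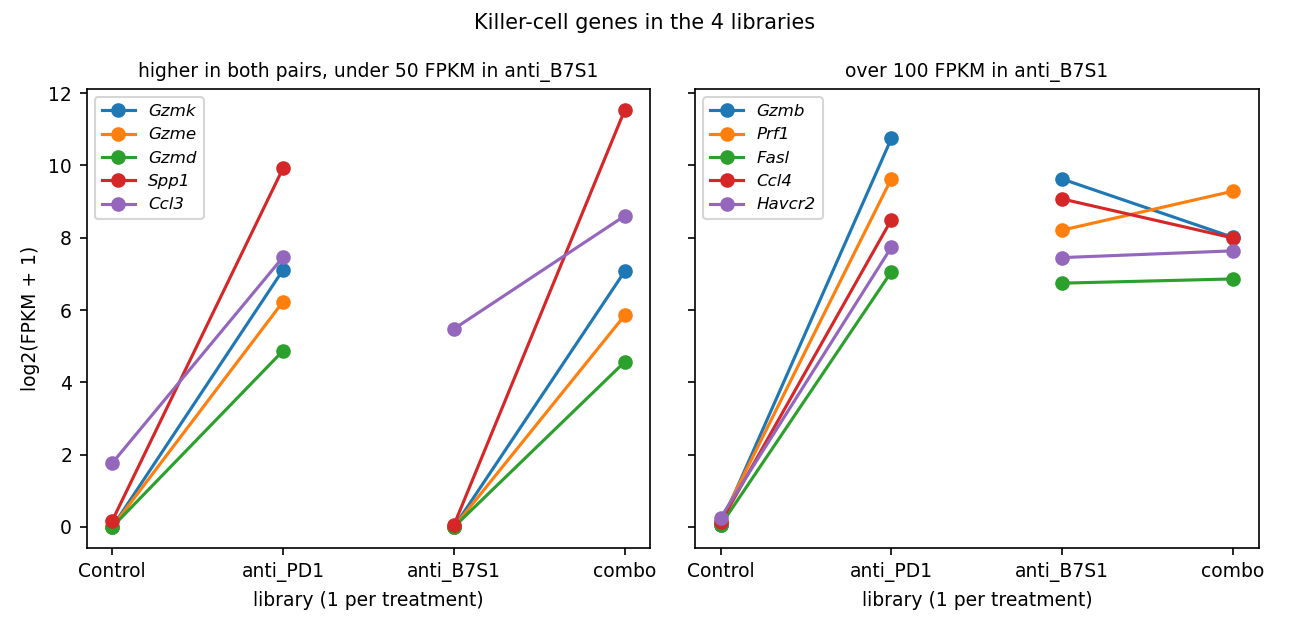
The level of 10 genes as log2(FPKM + 1) in each library, with a line joining the 2 libraries of a pair and 1 library per point. Genes on the left climb in both pairs, while those on the right, grouped after their values were seen, climb from Control to anti_PD1 and run nearly level or downward from anti_B7S1 to combo, apart from Prf1.

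Inhibitory receptors, which restrain chronically stimulated T cells, were mostly not different in both pairs. Of 20 genes 14 were read, and 1 (7.14%) was higher in both, below the 15.6% of all genes read. That gene, Cd244, encodes a receptor of the SLAM family and was at 0, 23.0, 11.3 and 28.4 FPKM. Pdcd1 itself was higher in each library with the PD-1 antibody, at 117, 292, 510 and 735 FPKM, but passed 2-fold only in the first pair (1.31 and 0.53). Havcr2, which encodes Tim-3, was at 0.19, 213, 174 and 198 FPKM, the same order as Fasl. Lag3 was at 334, 624, 367 and 764 FPKM, with differences of 0.90 and 1.05, on either side of the limit. Ctla4 went in opposite directions at 83.6, 487, 710 and 185 FPKM, and Tigit was 2-fold different in neither pair. Entpd1, or CD39, was listed at 0 in Control and was 5.69, 22.9 and 44.3 FPKM in anti_PD1, anti_B7S1 and combo.

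The ligands of PD-1 moved apart from each other. Cd274, which encodes PD-L1, was at 13.4, 6.19, 61.2 and 0.65 FPKM, with differences of -1.002 and -5.24, and the first of these fell short of 2-fold under 2 of the alternatives. Pdcd1lg2, which encodes PD-L2, was at 0.86, 5.17, 0.71 and 13.2 FPKM, with differences of 1.73 and 3.05, the first of which was 0.916 with a pseudocount of 4 FPKM. Downstream of the receptors, 3 of 33 signalling genes read (9.09%) were higher and 1 (3.03%) lower in both pairs. Over all genes read these shares were 15.6% and 7.29%. Ptpn11, which encodes the phosphatase SHP-2 recruited by PD-1, was at 1.84, 12.2, 0.01 and 12.0 FPKM. The T cell adaptor Themis was at 8.9, 55.3, 39.2 and 97.2 FPKM. Grb2, an adaptor bound by Themis, was lower at 28.1, 2.68, 41.2 and 11.6 FPKM.

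Regulators of exhaustion and effector fate gave 1 gene of 19 read (5.26%, against 15.6% of all genes read) that was higher in both pairs. It was Irf8, an interferon regulatory factor expressed in activated CD8 T cells, at 82.2, 397, 54.3 and 248 FPKM, and it was above 50 FPKM in every library. Tox, a factor that sustains exhausted cells, was at 86.7, 169, 345 and 292 FPKM, and its difference of 0.95 in the first pair became 1.01 with median-of-ratios scaling. Tbx21, which encodes T-bet, was listed at 0 in Control and at 36.6, 61.5 and 40.3 FPKM in the other libraries. Batf and Prdm1 were higher in the first pair and lower in the second.

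Receptors for costimulation and for cytokines held a few members of either kind. Over all genes read 15.6% were higher and 7.29% lower in both pairs, against 16.7% and 8.33% of the costimulatory receptors read. Among 12 costimulatory receptors read, Cd27 was higher in both at 55.1, 157, 79.9 and 172 FPKM, and Slamf1 at 0.02, 45.2, 5.75 and 26.9 FPKM. Tnfrsf25, or death receptor 3, was lower at 50.9, 0.17, 17.0 and 0.1 FPKM. Among 21 chemokine and cytokine receptors read, 2 were higher and 2 lower in both pairs (9.52% each). Il12rb2, the signalling chain of the interleukin-12 receptor, was at 0, 61.4, 0 and 39.2 FPKM, and Cx3cr1, the fractalkine receptor of effector cells, at 0.11, 116, 10.8 and 50.7 FPKM. Cxcr4 was lower at 5.32, 0.28, 38.7 and 3.04 FPKM, and Il21r at 631, 154, 405 and 197 FPKM, although scaling every library to the same total put its second difference at -0.955. None of 11 tissue residency genes read was changed the same way in both pairs, and Cd69, an early activation marker that keeps T cells in tissue, was higher in the first pair and lower in the second (84.6, 203, 23.3 and 10.2 FPKM).

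Early response and interferon genes were mixed. Of 25 immediate early and stress genes read, 3 (12.0%) were lower and 1 (4.0%) higher in both, against 7.29% and 15.6% of all genes read. Fos, part of the AP-1 factor, was at 200, 10.6, 20.8 and 0.13 FPKM, Fosl2 at 41.7, 10.4, 50.7 and 4.96 FPKM, and the antiproliferative gene Btg1 at 183, 78.5, 380 and 101 FPKM. Ier3 was the higher one, at 0, 39.2, 0 and 54.7 FPKM. Of 20 interferon-stimulated genes read, 4 were higher in both (the guanylate-binding protein genes Gbp2 and Gbp6, Parp9 and Zbp1), 2 were lower (Ifi47 and Parp14) and 4 went in opposite directions. Their median was 3.37 in the first pair and -0.90 in the second. Over the 6 members at 1 FPKM or more in all 4 libraries the first median was -0.066.

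Few genes of general metabolism and protein turnover differed in the same direction in both pairs. Most members of these lists were at 1 FPKM or more in all 4 libraries, and among all such genes 4.93% were higher and 5.58% lower. Of such members, 2 of 62 in oxidative phosphorylation, 1 of 34 in the proteasome and 0 of 14 in glycolysis were higher. In that order 1, 0 and 1 were lower. Over all members read the shares higher were 3.03%, 2.78% and 5.56%, against 15.6% of all genes read. In oxidative phosphorylation 2 of 66 read were higher, Ndufa5 and Ndufa10, and 1 lower, Ndufa6, all subunits of respiratory complex I. Psmc6, an ATPase of the proteasome, was higher at 19.3, 177, 39.5 and 168 FPKM and was the 1 of 36 proteasome genes to be so. In glycolysis 1 of 18 was higher, the glucose transporter gene Slc2a3 at 0.01, 49.8, 22.8 and 70.4 FPKM, and 1 was lower, Pgam1, whose second difference of -1.01 fell under 2-fold with 3 of the alternatives. No ribosomal protein gene of 78 was changed in both pairs. In the second pair alone 35 of 78 (44.9%) were lower, against 28.1% of all genes read. The median of the 78 was -0.97 there and 0.11 in the first pair. Their summed level was 95760, 106690, 134650 and 70512 FPKM in the order given above.

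**Figure D4:**
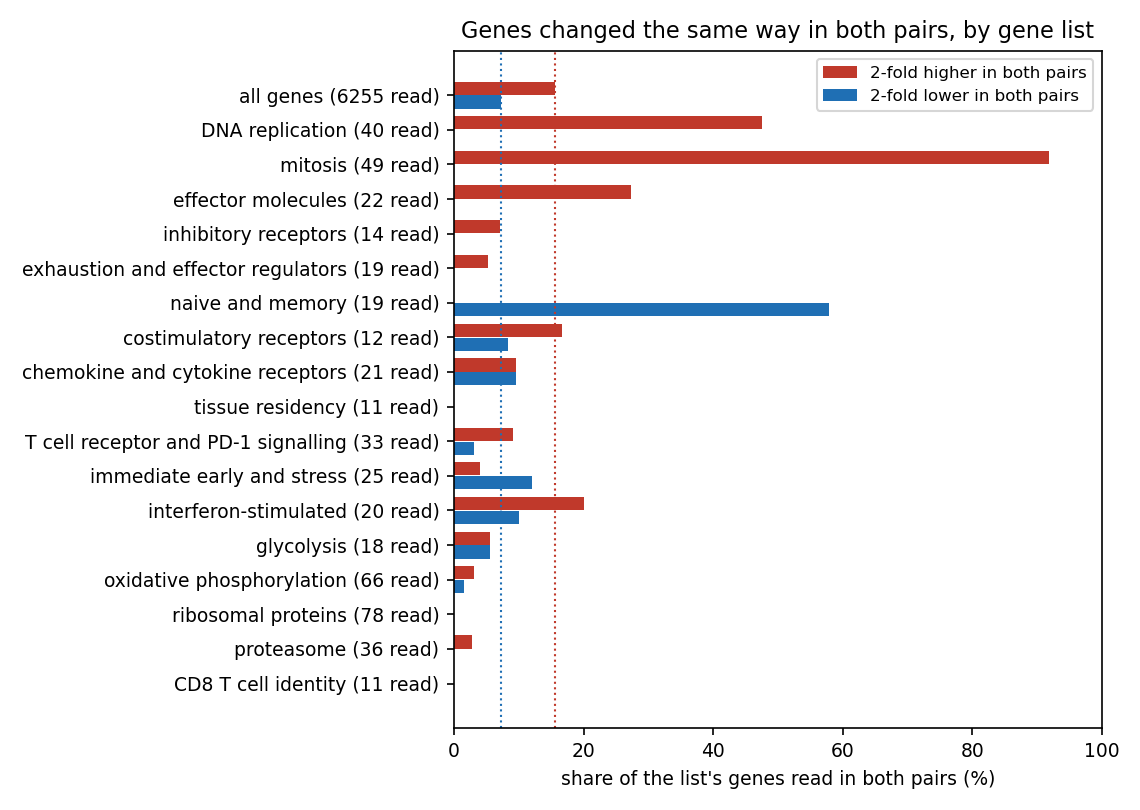
Bars give the share of each list's genes read that were at least 2-fold higher (red) or lower (blue) in both pairs, with the number read in brackets, and dotted lines mark the shares over all 6255 genes, 15.6% and 7.29%. Mitosis at 91.8% and DNA replication at 47.5% reach furthest beyond the red line. Effector molecules (27.3%) and interferon-stimulated genes (4 of 20) also pass it, and costimulatory receptors (2 of 12, 16.7%) lie close to it. Naive and memory at 57.9% reach furthest beyond the blue line. Immediate early and stress genes, interferon-stimulated genes, chemokine and cytokine receptors and costimulatory receptors lie a little past it. Their shares are 8.33% to 12%, from 1 to 3 genes each.

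Genes were also ranked across all those read, whether in a list or not. Those above 0 in all 4 libraries and at 10 FPKM or more in the higher library of each pair were kept. They were placed by the smaller of their differences. That set held 277 genes higher and 283 lower in both pairs. Of the 15 highest ranked, Birc5, Kif15, Tpx2, Kif11, Mcm5, Prc1 and Ckap2l belong to cell division, and Spp1 led. The mitosis and replication lists together held 89 of the 6255 genes read, though not Ckap2l. The share of cell division genes among the 277 was not counted. Nsmce2, a SUMO ligase of the SMC5/6 repair complex, was at 0.1, 90.6, 0.05 and 77.5 FPKM. Cd55, which protects cells from complement, was at 0.28, 50.5, 0.27 and 120.1 FPKM, and Rad9a, part of a DNA damage clamp, at 0.03, 25.9, 0.03 and 38.4 FPKM. Btg3, Gemin2, Serpina3f and Tstd3 made up the rest, with differences between 4.42 and 6.37 in the first pair and between 4.81 and 5.17 in the second. Among the 15, Birc5, Kif11, Mcm5, Prc1 and Gemin2 reached 1 FPKM in Control or anti_B7S1. The others were under 1 FPKM in both, so the filter fixed their call as higher.

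Among the 15 ranked lowest, S1pr1, Lef1, Id3, Slamf6, Fos and Tnfrsf25 are described above. St6gal1, which adds sialic acid to surface glycans, was at 35.9, 0.05, 29.5 and 0.02 FPKM. Fam129a was at 74.2, 0.06, 51.5 and 1.26 FPKM. Lrwd1, a partner of the origin recognition complex, was at 38.9, 1.37, 28.0 and 0.05 FPKM. Ubxn11, Rundc1, Wsb2 and Fntb, the beta subunit of farnesyltransferase, were each between 24.2 and 38.8 FPKM in Control and under 1 in anti_PD1 and combo. The filter thus fixed the call of each as lower, as it did for S1pr1, Lef1, Id3, Tnfrsf25 and St6gal1.

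The same genes were then read in libraries whose values the 2-fold rule did not use. These were wild-type PD-1+ CD8+ cells of E.G7 tumours, with no antibody in their labels, in a pair of separate sets, in which TIM-3_SP carried Tim-3 and DN did not, both without B7S1R. Of the genes read above, 4854 were also read in both sets, of which 94 (1.94%) were at least 2-fold higher in TIM-3_SP than in DN in both sets and 309 (6.37%) lower. Mitosis genes that were higher in both antibody pairs were higher in TIM-3_SP in both sets for 11 of the 21 read, with medians of 1.72 and 1.57 against -0.19 and -0.35 over all 4854. Of the DNA replication genes higher in both antibody pairs, 1 of the 13 read was higher in TIM-3_SP in both sets and none lower, with medians of 1.43 and 0.52. Birc5 was at 34.1 FPKM in TIM-3_SP and 3.95 in DN in set 1, and at 180 and 16.4 in set 2. Ccna2 was at 8.84 and 5.98 FPKM in set 1 and at 17.8 and 4.91 in set 2, so only set 2 passed 2-fold. Ndc80, a kinetochore gene, went the other way in set 1, at 0.09 and 6.35 FPKM.

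Naive and memory genes lower in both antibody pairs were lower in TIM-3_SP in both sets for 7 of the 9 read, Actn1 and Foxo1 being the exceptions. S1pr1 was at 0.26 FPKM in TIM-3_SP and 77.3 in DN in set 1, and at 0.15 and 20.1 in set 2. Tcf7 was at 12.1 and 168 FPKM in set 1 and at 7.36 and 102 in set 2. Gzmk showed no such order, being 449 FPKM in DN and 246 in TIM-3_SP in set 1 but 105 and 288 in set 2. Taking all genes rather than lists, 39 of 639 genes (6.1%) higher in both antibody pairs were higher in TIM-3_SP in both sets and 35 (5.48%) lower, with medians of -0.0007 and -0.21, and 46 of 282 genes (16.3%) lower in both pairs were lower there. Without the mitosis and replication lists, 27 of 605 (4.46%) were higher and 35 (5.79%) lower. Genes of opposite direction between the pairs were lower in TIM-3_SP in both sets for 44 of 518 (8.49%) and 28 of 276 (10.1%), also above 6.37%.

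**Figure D5:**
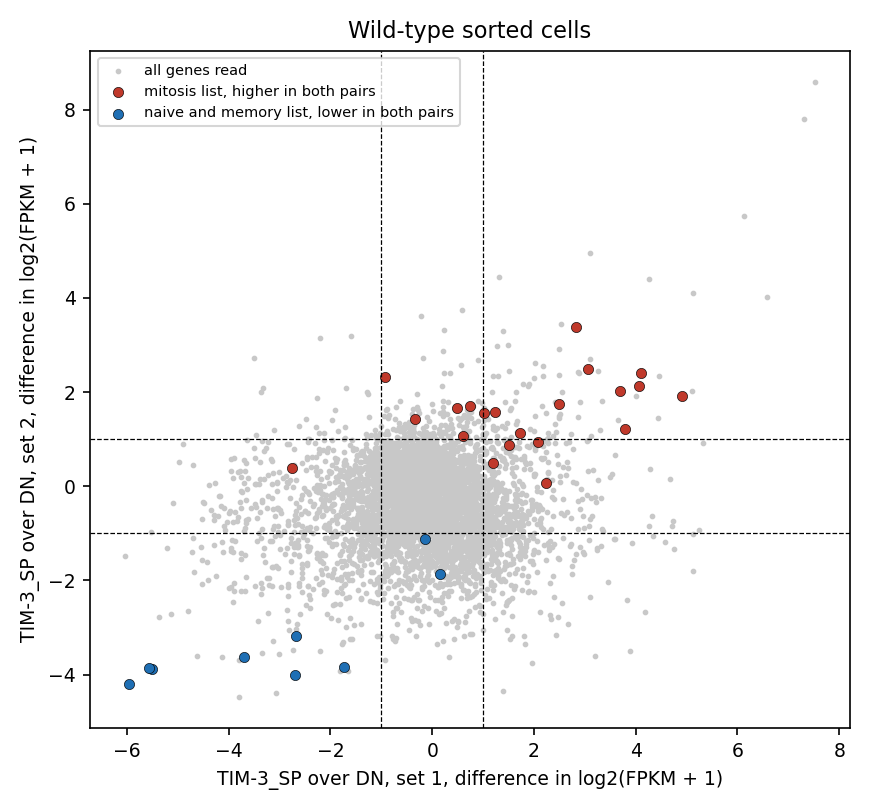
Each grey point is 1 of 4854 genes, placed by its difference in log2(FPKM + 1) between TIM-3_SP and DN in wild-type set 1 (horizontal) and set 2 (vertical), with dashed lines at 2-fold and 1 library per population and set. Of the 21 red mitosis genes 11 lie in the upper right corner, and 7 of the 9 blue naive and memory genes lie in the lower left.

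Markers of other cells were uneven between the libraries. Cd4 and Foxp3, which define helper and regulatory T cells, were under 0.3 FPKM throughout, as were Csf1r and the erythroid gene Alas2, and the B cell gene Cd79a was under 0.1. Lyz2 and Cd14, of myeloid cells, were at 66.7 and 36.4 FPKM in combo and at 0.2 or less in the other libraries. Hbb-bs, of red cells, was at 32.5 FPKM in anti_B7S1 and at 0.38 or less elsewhere. Klrb1c, of NK cells, was at 19.3 FPKM in anti_PD1 and 1.07 in Control, and at 0 in the other pair, while the summed level of the NK list was 98.7, 375, 164 and 473 FPKM, of which Klre1, a receptor that CD8 T cells also carry, made up 285 in anti_PD1 and 444 in combo. Of the 7 lists of other cells, the B cell list summed to 0.6, 14.1, 23.3 and 0.69 FPKM and the erythroid list to 38.7, 0.17, 40.3 and 0.45. Myeloid genes summed to 677, 241, 333 and 211 FPKM, with Cd68, Ctss and Cd74 the highest in Control, and Cd74 was lower in both pairs. The sums were 90.3, 64.9, 57.3 and 56.8 FPKM for CD4 and regulatory T cells and 215, 290.5, 119 and 191 for stromal and endothelial cells. Genes of immature T cells summed to 651, 633, 562 and 1047 FPKM, mostly from Cd8b1. The part of these cells in the results was not tested. Over all 14710 genes, the number at 0 was lower in anti_PD1 than in Control and higher in combo than in anti_B7S1. Among the 6255 genes read it was lower with the PD-1 antibody in both pairs, at 1116 in Control and 57 in anti_PD1, and at 635 in anti_B7S1 and 371 in combo. Its part in the results was not tested.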

How the data were processed

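RNA of tumour-infiltrating cells was measured with a SMARTer ultra low input kit, per the labels' protocols. The deposited files give FPKM per gene, rounded to 2 decimals, per the file headers and values. The submitters' processing notes name HISAT2, Bowtie2 and RSEM and the build mm10, and versions and annotation are not given in the sources used here. Depth is unknown, since no counts were used and FPKM steps did not give it. Groups came from the titles. The 4 antibody tables list 14710 symbols once, and 2 rows of a repeated symbol were left out.

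Differences were computed on log2(FPKM + 1) within each pair with pandas 2.3.3 under Python 3.11.15, for genes at 5 FPKM or more in the higher library of each pair, with 2-fold as the limit and no test. The members and the 25 gene lists were chosen with earlier results of these data known. Named genes were a panel of 37, the 15 ranked each way above 0 in all libraries, up to 4 per pathway list, and 5 each way of opposite direction. Predicted genes, pseudogenes, small RNAs, histones and receptor segments were left out of the ranked genes. Other genes named as exceptions, and list members beyond these, were chosen after their values were seen. The TIM-3_SP and DN tables were read only within a set. Gene positions are from GENCODE vM21 on GRCm38, the same assembly as mm10. Alternatives were other pseudocounts, filters and scalings. The counting was tested on simulated data. Results for some genes are not reported here.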

Additional observations from a re-analysis of the deposited data

Results flagged for a closer look

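The pairs gave opposite 2-fold differences for 14 of the genes named by rule, and the difference between the pairs was not tested, since each library stands alone. Of these, 5 each way were named because their directions were opposite, so the count follows from the rule. The others, Gzmb, Ccl4, Ccl5 and Ctla4, came from the panel. Over all genes read 18.5% went in opposite directions. Values here are the difference in the second pair minus that in the first, in log2(FPKM + 1). Genes higher in the first pair and lower in the second included the granzyme gene Gzmb at -12.3, the chemokine genes Ccl4 at -9.46 and Ccl5 at -2.82, and the inhibitory receptor gene Ctla4 at -4.47. All of these were higher in anti_B7S1 than in Control. By the smaller of the 2 differences, the leading genes of that direction were Ifi27l2a, an interferon-induced gene, at -11.6, Tspan14, a tetraspanin, at -11.42, Tsnax at -11.07, the isoleucyl-tRNA synthetase gene Iars at -10.37, and Uspl1, a SUMO protease, at -10.09. Tspan14 was at 0.02 FPKM in Control, 52.6 in anti_PD1, 54.9 in anti_B7S1 and 0.07 in combo.

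In the other direction the proenkephalin gene Penk stood at 10.76, the T cell adhesion receptor gene Crtam at 9.46, the kinase gene Pak4 at 9.31, Lrrc40 at 9.29, and the chondroitin synthesis gene Chpf2 at 8.82. Penk was at 8704 FPKM in Control, 147 in anti_PD1, 0.17 in anti_B7S1 and 33.6 in combo. Crtam was at 1025, 35.6, 0.03 and 25.0 FPKM in the same order. The highest of the 4 values is therefore in Control for both.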

How the results depend on the processing

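The 7 counts of changed genes stayed within 1.5 times with other pseudocounts, both scalings and repeated symbols summed. With at least 20 FPKM in the higher library, 427 genes were higher and 275 lower in both pairs, 1218 higher and 843 lower in the first pair, 1086 higher and 915 lower in the second, and 514 opposite. Fewer genes were read (3899). With 1 FPKM or more in all 4 libraries (3550 genes) these counts were 175, 198, 700, 794, 752, 748 and 311. Of genes changed the same way, 68.2% were higher, against 60.8% and 46.9% under those filters. With no filter the first pair had 4436 higher and 2033 lower and the second 2806 lower. The median of interferon-stimulated genes in the first pair turned from 3.37 to -0.066 with 1 FPKM or more in all 4, which left 6 genes. No named gene that was 2-fold different changed direction under these alternatives. No paired analysis was possible because each treatment has 1 library and no test was run. Unknown depth limits every value near 0.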

Other observations

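Over the 6255 genes read, the libraries correlated on log2(FPKM + 1) at 0.666 for anti_PD1 with combo, 0.602 for anti_PD1 with anti_B7S1, 0.528 for Control with anti_B7S1, 0.486 for Control with anti_PD1, 0.48 for Control with combo and 0.384 for anti_B7S1 with combo (Pearson's r across genes, which are not independent). Of 18 housekeeping genes, Tubb5, a tubulin gene, was higher in both pairs at 253, 911, 380 and 1200 FPKM in Control, anti_PD1, anti_B7S1 and combo. Tbp, a general transcription factor, was lower in both at 40.8, 15.9, 32.8 and 0 FPKM. Ppia and Ywhaz were 2-fold different in neither pair.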
